A study of Mus musculus with 18 samples.

Results

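Interferon-stimulated genes are the genes that cells switch on when they sense an interferon, and 42 of them were followed here gene by gene. They were taken by symbol from a list that was drawn up with earlier results of these data known. All 42 were found among the 24062 genes of the count tables, and 30 had enough reads to be tested. The samples were NIH3T3 cells, a mouse embryonic fibroblast line, and a line derived from it, NIH3T3-mCherry-mTRIM21, which carries mouse TRIM21 joined to the red fluorescent protein mCherry. These lines are called parental and TRIM21 below. The promoter that drives the fusion, and whether the derived line is a single clone, are not given in the labels. Cells of each line were electroporated (2 pulses of 20 ms at 1400 V) with PBS (a salt buffer), with bovine serum albumin (BSA, a protein that is not an antibody) or with an antibody (IgG), and RNA was taken 16 h later. Where protein was added, 7.5 µg went into each reaction. That makes 6 groups of 3 libraries, and the libraries of a group carry the numbers 10, 11 and 14 in their titles. Nothing in the labels says what these numbers stand for or whether the 3 libraries came from separate cultures, so p-values measure only the spread between these libraries, which may be technical.

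Interferons alpha and beta bind a receptor made of IFNAR1 and IFNAR2, whose kinases JAK1 and TYK2 pass the signal on by phosphorylation. STAT2 and IRF9 are parts of a complex that then binds a short DNA element, the interferon-stimulated response element (ISRE), in the promoters of target genes. Interferon gamma acts through another element, the gamma-activated site (GAS). The products block viruses at many steps: they bind viral RNA, degrade RNA, deplete nucleotides, trap budding particles or feed back on the pathway itself. Fibroblasts make and answer interferon beta after infection, and uninfected fibroblasts keep some of these genes at a low level. TRIM21 is an antibody receptor of the cytosol and a ubiquitin ligase, and its own gene is interferon-inducible.

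The element that gives the family its name can be read in the promoters of several members. The stretches below were taken from RefSeq promoter windows on build GRCm38.p6, each running from 250 bases before to 50 bases after an annotated start, and capitals mark every match to the ISRE core (GAAA, any 2 bases, GAAA) on either strand. Each is written 5′ to 3′ on the strand of its gene. They were chosen because the abundance and the behaviour of these 8 genes recur below: 3 IFIT neighbours on chromosome 19, 3 guanylate-binding protein genes on chromosome 3, the ubiquitin-like modifier Isg15 and the signal transducer Stat2.
Ifit1 (chr19:34640759-34640838, plus strand): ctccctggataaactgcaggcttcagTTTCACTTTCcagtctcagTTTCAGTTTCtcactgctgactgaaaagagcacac
Ifit3 (chr19:34583349-34583428, plus strand): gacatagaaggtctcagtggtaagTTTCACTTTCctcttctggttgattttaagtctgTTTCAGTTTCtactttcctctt
Ifit2 (chr19:34550444-34550693, plus strand): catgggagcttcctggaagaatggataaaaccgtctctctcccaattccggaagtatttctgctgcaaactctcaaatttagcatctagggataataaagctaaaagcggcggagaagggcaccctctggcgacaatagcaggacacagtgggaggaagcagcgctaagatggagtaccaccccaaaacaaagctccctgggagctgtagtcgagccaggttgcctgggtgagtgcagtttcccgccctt
Gbp2 (chr3:142620553-142620614, plus strand): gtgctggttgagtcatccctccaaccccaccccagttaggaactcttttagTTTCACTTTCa
Gbp3 (chr3:142559946-142560025, plus strand): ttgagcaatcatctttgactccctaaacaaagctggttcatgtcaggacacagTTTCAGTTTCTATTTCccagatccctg
Gbp7 (chr3:142530246-142530325, plus strand): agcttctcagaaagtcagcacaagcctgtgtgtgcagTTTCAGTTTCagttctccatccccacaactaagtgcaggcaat
Isg15 (chr4:156200849-156200928, minus strand): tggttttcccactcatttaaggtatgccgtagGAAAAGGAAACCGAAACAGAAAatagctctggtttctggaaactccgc
Stat2 (chr10:128270248-128270327, plus strand): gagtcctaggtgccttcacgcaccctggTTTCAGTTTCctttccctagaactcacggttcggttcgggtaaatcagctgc
Ifit1 and Ifit3 hold 2 separate matches each, Isg15 holds 3 that overlap, and Gbp3 holds 2 that overlap. The 250 bases before the start of Ifit2 hold no match. GENCODE starts Gbp2 at base 142620602, so the match lies just inside the gene in that annotation and upstream of it in RefSeq.

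Of the 42 members, 32 had a RefSeq window, and 16 of these (50%) held the ISRE core on at least 1 strand. The core was found in 3.44% of all 32851 windows of the same length and in windows of 3.99% of 27025 genes. The GAS letters TTCNNNGAA, searched on both strands, were found in 8 of the 32 members (25%), against 8.3% of all windows and 9.55% of genes. Oas1a, Gbp7, Igtp, Eif2ak2 and Bst2 held both motifs. A match is a description of letters and not of a bound site. Usp18, Mx1, Mx2, Oas1b, Oas2, Parp9, Parp14, Iigp1, Zbp1 and Rtp4 had no window.

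**Figure D1:**
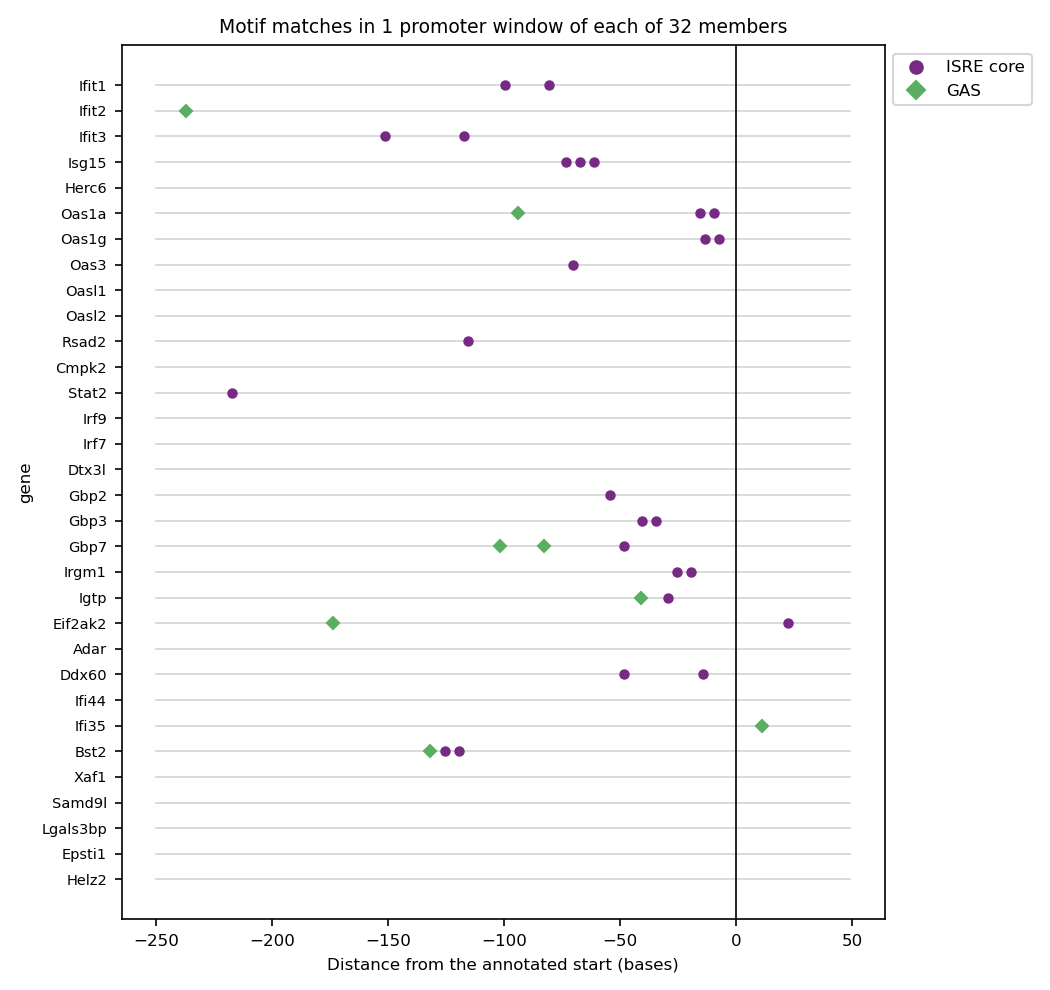
Position of ISRE-core matches (purple circles) and GAS matches (green diamonds) along the x axis, in bases from the annotated start, with 1 row for each of the 32 members that had a RefSeq window; the first window is drawn where a gene had several, which leaves out the GAS match of Adar. Most circles lie within 150 bases before the start, Stat2 has its match farther upstream, and Ifi44, Cmpk2, Irf7, Oasl2 and Xaf1 are among the empty rows.

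Gene-assigned counts per library ran from 20314542 to 29766433 in the TRIM21 line and from 19509017 to 26521824 in the parental line. Trim21 itself had 19900 to 32225 counts in the 9 TRIM21 libraries and 142 to 223 in the 9 parental ones. All 10 fibroblast markers listed (collagens, Vim, Fn1, Pdgfra and others) had at least 10 counts in every library. Of 7 macrophage markers measured, Itgam, Lyz2 and Fcgr1 were under 3 counts in every library, while Csf1r, Cd68 and Cd14 had at least 10 in every library, and the list summed to 12 to 17.1 CPM (counts per 1e6 gene-assigned reads). Of 5 plasmacytoid dendritic cell markers, Siglech, Ly6c2 and Ccr9 were under 3 counts in every library and Tcf4 and Bst2, itself a member, had at least 10 (96.8 to 153 CPM summed). The 4 endothelial markers summed to 0.479 to 2.6 CPM and the 4 epithelial ones to 0.575 to 2.25 CPM. The PBS library of the TRIM21 line numbered 11 stood farthest from the rest on the first principal component of all tested genes (a score of -46.1). In bulk RNA, fewer cells expressing a gene and less RNA of it per cell cannot be told apart.

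The members fell into 4 classes of abundance. Oas1a and Oas1g, which make the 2-5A that activates RNase L, had 0 counts in all 18 libraries. A count of 0 allows up to 3 counts, which is 0.0981 to 0.152 CPM depending on the library and covers counting error only. Oas1a shares 57.6% of its 50-base stretches with Oas1g, and reads that align to both would have been left out. Oas2 and Oas3 never exceeded 2 and 1 counts, so the enzymes of the OAS family were at or under the limit of detection apart from Oas1b. Oas1b, annotated as a polymorphic pseudogene, had 1 to 10 counts.

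Among the other genes too low to test were textbook antiviral effectors. Mx1 and Mx2, dynamin-like GTPases that block viral nucleocapsids, reached 5 and 3 counts at most. Mx2, like Oas1b, is annotated as a polymorphic pseudogene. Rsad2 (viperin, which makes a chain-terminating nucleotide) reached 4 counts and was at 0 in 7 libraries. The GTPase gene Iigp1 and the OAS-like gene Oasl1 reached 3 counts each. The Z-nucleic acid sensor Zbp1 and the helicase Ddx60 were less rare, with up to 10 and 18 counts, and each was at 0 in a single library, TRIM21 PBS 11. In all, 12 members were left untested: 2 at 0 everywhere, 2 that never reached 3 counts and 8 that did.

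Levels per length, as RPKM (reads per kilobase of exon per 1e6 reads, mean ± SD over 18 libraries), set the tested members far apart. The guanylate-binding protein Gbp2 stood at 9.55 ± 2.14 RPKM. Eif2ak2, the RNA-activated kinase PKR, stood at 9.03 ± 1.19, and the secreted glycoprotein gene Lgals3bp at 7.77 ± 0.796. Ifi35 (7.35 ± 0.762), the RNA editor Adar (7.25 ± 0.383) and Samd9l (6.97 ± 1.11) followed. Stat2 (6.12 ± 1.47), Ifit2 (5.72 ± 1.06), Parp9 (5.24 ± 0.806) and Isg15 (4.95 ± 1.29) completed the first 10. Between neighbours in this order only the step from Eif2ak2 to Lgals3bp was larger than both their SDs.

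Other members sat far lower. Ifit1 stood at 0.736 ± 0.393 RPKM, Usp18 at 0.413 ± 0.16, Ifi44 at 0.347 ± 0.17, Ifit3 at 0.294 ± 0.131, Irf7 at 0.292 ± 0.114 and Cmpk2 at 0.246 ± 0.0981. Oasl2 was the lowest tested member, at 0.0564 ± 0.0308 RPKM and 2 to 18 counts. Thus Ifit2 was several times more abundant per length than its neighbours Ifit1 and Ifit3, although Ifit3 shares 51.2% of its 50-base stretches with Ifit3b and may be undercounted. Adar varied least in relation to its level. Gbp3, Gbp7 and Irf7 fell farthest below their means in a single library, to 0.0459, 0.0178 and 0.0265 RPKM, all in TRIM21 PBS 11.

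**Figure D2:**
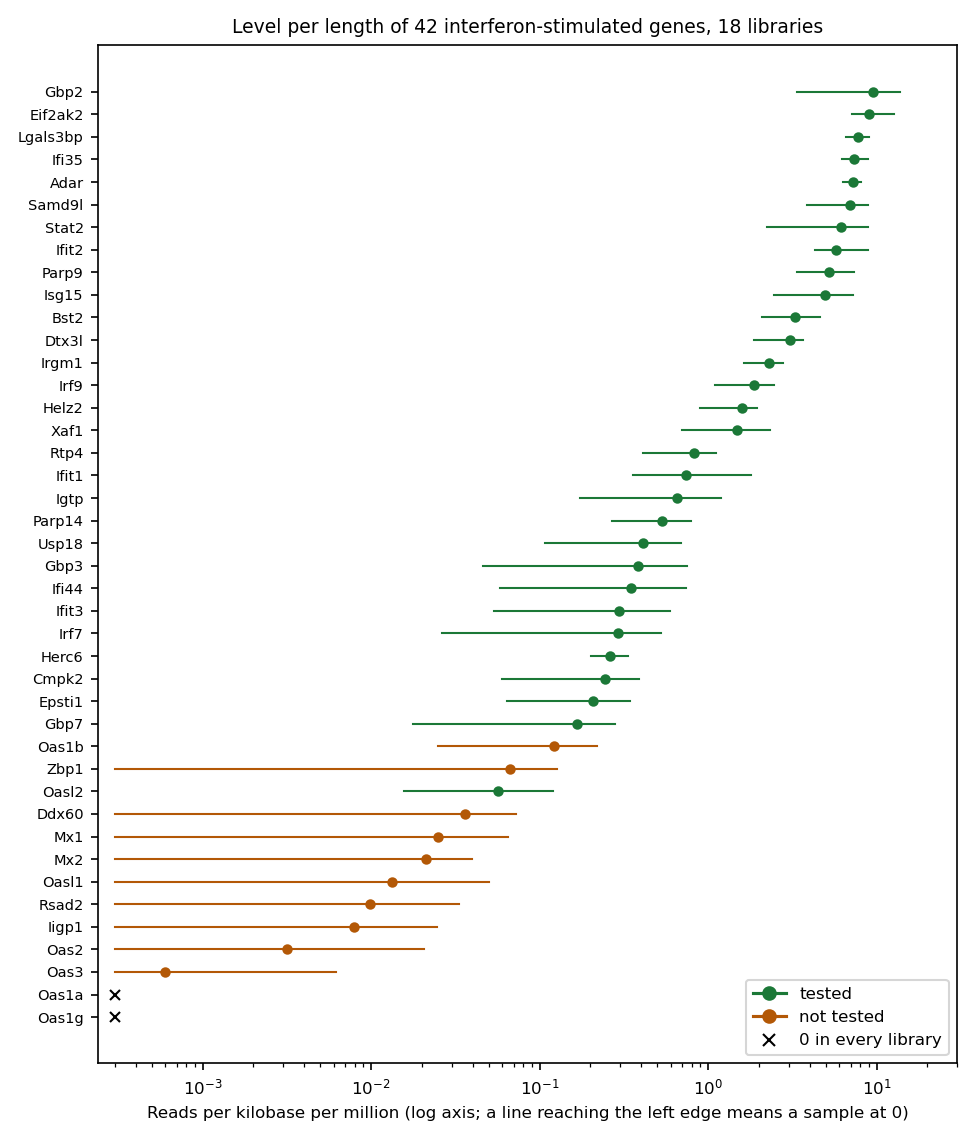
Level of each of the 42 members on a log axis in RPKM; points are means over 18 libraries and lines run from the lowest to the highest library. Green members were tested, orange ones were not, and crosses at the left edge mark Oas1a and Oas1g, at 0 everywhere; Gbp2 leads at 9.55 and tested members reach down to Oasl2 at 0.0564.

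The comparison of the lines, averaged over the 3 treatments, called 3 of 30 tested members at an adjusted p under 0.05 (edgeR quasi-likelihood test, Benjamini-Hochberg over 12140 genes). Cmpk2 and Ifi44 were lower in the TRIM21 line and Ifit2 was higher. Over all tested genes the same comparison called 6.18% (4.79% lower and 1.39% higher), beside 10% of the members. Of the 30 members, 25 had a log2 fold change below 0, with a median of -0.17 against 0.01 over all genes. Without TRIM21 PBS 11, 23 were below 0 and the median was -0.09, and without parental PBS 14 as well, 18 were below 0 and the median was -0.04. The pair was chosen after seeing the data. Many members were lowest in the former and highest in the latter, so leaving both out was bound to shrink the difference. With all libraries, those 25 negative values summed to -6.81, and Ifi44, Cmpk2, Usp18, Irf7 and Stat2 held 49.7% of that sum. At an unadjusted p under 0.05 stood 8 members, against 21.4% of all genes. No member separated all 9 libraries of the TRIM21 line from all 9 of the parental line, which 1.91% of all genes did.

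No treatment comparison and no difference of treatment effects between lines called any member or any other gene (0% of 12140 genes in each, with edgeR and with DESeq2). For IgG against PBS in the TRIM21 line, 25 of 30 members had a log2 fold change above 0 and the median was 0.29, against 0.01 over all genes. Oasl2, Irf7, Usp18, Ifi44 and Stat2 held 47% of the summed positive values. Dtx3l was the only member at an unadjusted p under 0.05, where 681 genes (5.61%) stood. Without the library TRIM21 PBS 11, 18 members were above 0 and 12 below, and the median was 0.05. Many members were lowest in that library, so leaving it out was bound to lower their values. The 5 highest values were then those of Oasl2, Ifi44, Epsti1, Usp18 and Ifit3, with 62.7% of the positive sum.

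**Figure D3:**
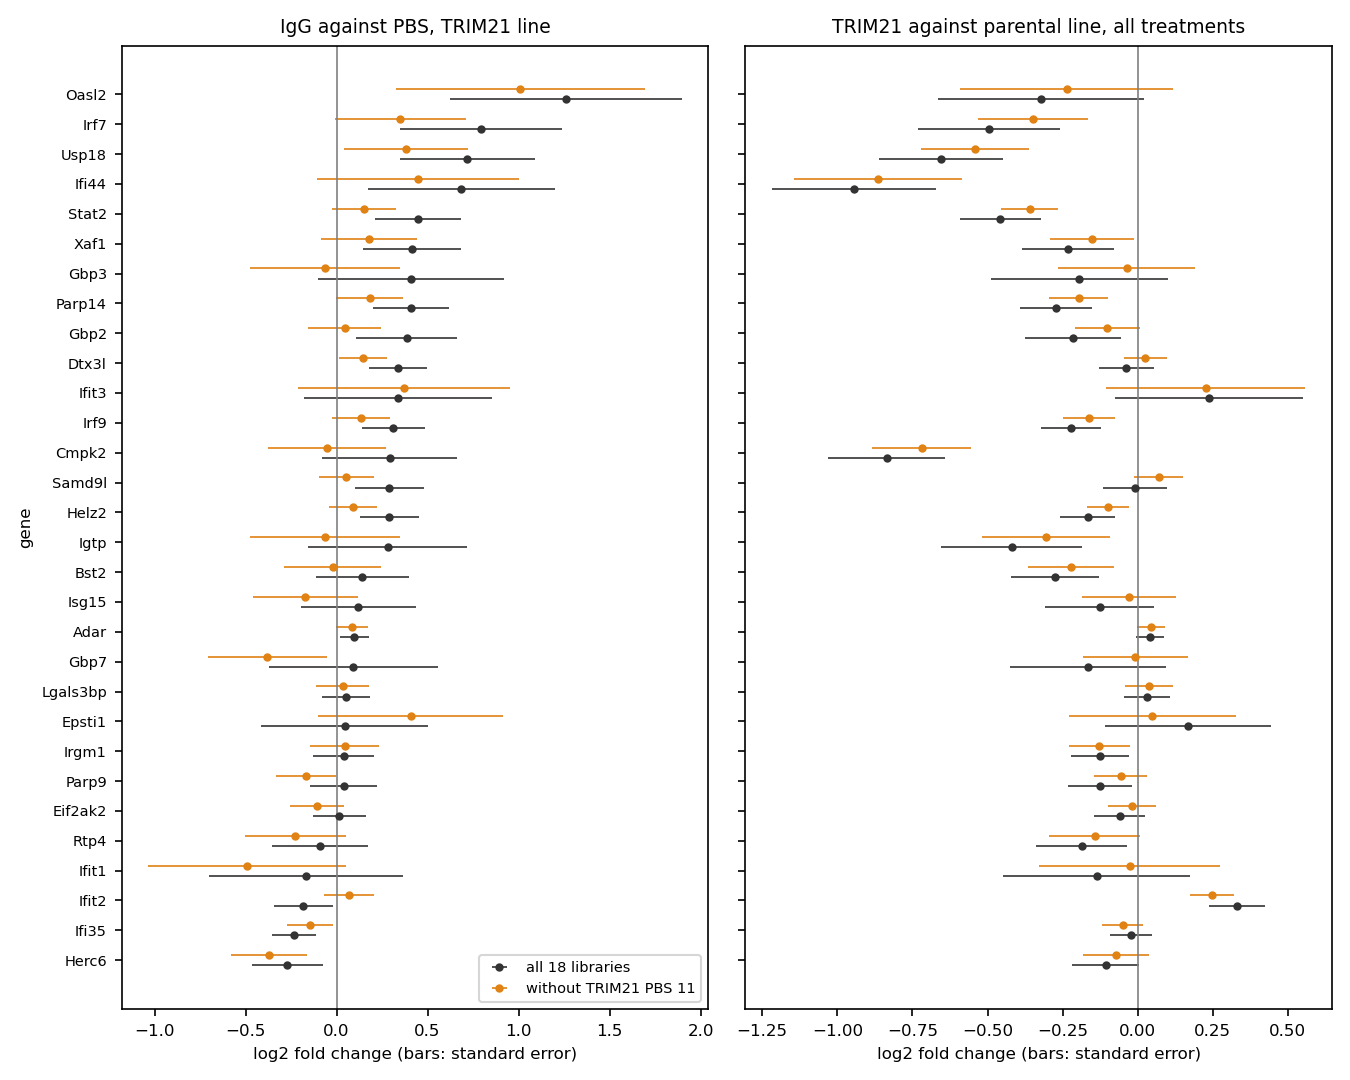
Log2 fold changes of the 30 tested members (points) with standard errors (bars), for IgG against PBS in the TRIM21 line (left) and for the TRIM21 against the parental line over all treatments (right), with all 18 libraries (black) and without TRIM21 PBS 11 (orange). On the left the orange points lie closer to 0 for most members; on the right Ifi44, Cmpk2 and Usp18 stay lowest in both fits.

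The IFIT proteins bind viral RNA that lacks the host's cap methylation, and Ifit2 is the member of this group that differed between the lines. Ifit2 (chr19:34550694-34576419, plus strand, GRCm38) was measured in CPM. Its values in the parental line, with the libraries in the order 10, 11 and 14 here and below, were 19.1, 18 and 22.4 after PBS, 16.9, 21.4 and 19.6 after BSA, and 17.9, 23.2 and 20.3 after IgG. Its values in the TRIM21 line were 24.3, 35.2 and 20.3 after PBS, 25.1, 25.4 and 24.9 after BSA, and 22.1, 22.7 and 25.4 after IgG. The TRIM21 values were higher in 7 of 9 pairs of the same treatment and number, the ranges overlapped, and the peak of 35.2 was in TRIM21 PBS 11. The log2 difference was 0.33 (SE 0.094, edgeR adjusted p = 0.0428), and it was 0.25 (SE 0.074, edgeR adjusted p = 0.0616) without that library. Within numbers 10, 11 and 14 it was 0.40, 0.38 and 0.17. The call was lost in 13 of the 18 fits that left out a single library, where the difference ran from 0.25 to 0.39. It was kept in 6 of the 7 other alternatives.

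Ifit1 and Ifit3, next to Ifit2 on chromosome 19, did not pass the test in this comparison. Their log2 differences between lines were -0.14 (SE 0.31) for Ifit1 and 0.24 (SE 0.31) for Ifit3. Ifit1 ran from 0.95 to 3.54 CPM in the TRIM21 line (median 1.35) and from 1.25 to 4.74 in the parental line (median 1.48). It was highest in the library numbered 14 in all 6 groups.

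Isg15 is a ubiquitin-like protein attached to other proteins, Herc6 is the mouse ligase that attaches it, and Usp18 removes it and dampens receptor signalling. Usp18 CPM in the parental line was 1.47, 1.58 and 1.92 after PBS, 1.26, 1.43 and 1.66 after BSA, and 0.743, 1.62 and 0.986 after IgG. TRIM21 libraries had 0.951, 0.3 and 0.93 after PBS, 0.635, 0.537 and 1.01 after BSA, and 0.826, 1.38 and 1.48 after IgG. After PBS and after BSA the lines did not overlap, and after IgG they did. The line difference was -0.66 on the log2 scale (SE 0.206, edgeR adjusted p = 0.0688), lower in 7 of 9 pairs.

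Usp18 had the lowest unadjusted p among members for the difference between the lines in IgG against PBS. IgG against PBS gave a log2 fold change of 0.72 (SE 0.371) in the TRIM21 line and -0.57 (SE 0.343) in the parental line, a difference of 1.29 (SE 0.505, unadjusted p = 0.0203, edgeR adjusted p = 0.972). Without TRIM21 PBS 11 the value in the TRIM21 line was 0.38 (SE 0.341) and the difference 0.95 (SE 0.448, unadjusted p = 0.0489, edgeR adjusted p = 1). No gene was called in that comparison, where 2 members and 221 genes (1.82%) had an unadjusted p under 0.05. The other member was Irf7. Isg15 itself ranged from 1.85 to 5.47 CPM in the TRIM21 line and from 2.79 to 5.14 in the parental line, with a line difference of -0.13 (SE 0.181). Herc6 had a line difference of -0.11 (SE 0.111) and the lowest log2 fold change of IgG against PBS in the TRIM21 line, -0.27 (SE 0.196, edgeR adjusted p = 0.728).

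Of the 7 OAS and OAS-like genes only Oasl2, which joins an OAS-like part to ubiquitin-like domains, could be tested. Oasl2 CPM in the TRIM21 line was 0.238, 0.1 and 0.215 after PBS, 0.159, 0.268 and 0.589 after BSA, and 0.261, 0.346 and 0.762 after IgG. In the parental line it was 0.312, 0.324 and 0.719 after PBS, 0.218, 0.138 and 0.602 after BSA, and 0.325, 0.457 and 0.444 after IgG. The TRIM21 values came from counts of 5, 2 and 6 after PBS and of 6, 7 and 17 after IgG. Oasl2 had the largest log2 fold change of IgG against PBS in the TRIM21 line, 1.26 (SE 0.636, edgeR adjusted p = 0.724), and it did not pass the test. Leaving out TRIM21 IgG 14 brought it to 0.67, and leaving out TRIM21 PBS 11 to 1.01. The line difference after PBS was -1.22 (SE 0.636) and after IgG 0.17 (SE 0.561).

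Cmpk2 (chr12:26469204-26479837, plus strand, GRCm38), a mitochondrial nucleotide kinase gene beside Rsad2, had the smallest adjusted p of all members between the lines. Cmpk2 CPM in the parental line was 0.979, 0.891 and 1.25 after PBS, 1.61, 1.2 and 1.58 after BSA, and 1.16, 1.62 and 1.63 after IgG. The TRIM21 line had 0.856, 0.25 and 0.822 after PBS, 0.635, 0.492 and 1.01 after BSA, and 1.04, 0.692 and 0.673 after IgG. The TRIM21 value was lower in 9 of 9 pairs, and within each of the 3 treatments the lines did not overlap. The log2 difference was -0.84 (SE 0.196, edgeR adjusted p = 0.0146), at 5 to 42 counts a library. Within numbers 10, 11 and 14 it was -0.38, -0.83 and -0.57 in log2 (CPM + 0.5), which shrinks differences at low CPM. The fitted difference was -0.72 without TRIM21 PBS 11. Cmpk2 passed the test with each of the 18 libraries left out in turn, which no other member did. IgG against PBS in the TRIM21 line gave 0.29 (SE 0.37), and -0.05 without TRIM21 PBS 11.

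Stat2 and Irf9 encode parts of the complex that binds the ISRE, and Irf7 is the factor that amplifies interferon production. Stat2 CPM in the parental line was 36.8, 40.8 and 52.4 after PBS, 41.3, 33.3 and 46.1 after BSA, and 38.3, 45.7 and 41.6 after IgG. TRIM21 libraries had 29.5, 13.2 and 31.2 after PBS, 27.1, 37.7 and 36.8 after BSA, and 29.7, 32.1 and 39.2 after IgG. The TRIM21 line was lower in 8 of 9 pairs, and after PBS the lines did not overlap. The log2 line difference was -0.46 (SE 0.135), just short of the threshold with all libraries (edgeR adjusted p = 0.0526). It passed in 6 of the 18 fits that left out a single library and stayed short in 12. Among those that passed was the fit without TRIM21 PBS 11, at -0.36 (SE 0.095, edgeR adjusted p = 0.0337). IgG against PBS in the TRIM21 line gave 0.45 (SE 0.236, edgeR adjusted p = 0.724), and 0.15 without that library.

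Irf7 CPM in the parental line was 0.979, 1.98 and 1.34 after PBS, 1.26, 1.11 and 1.92 after BSA, and 0.883, 0.964 and 1.08 after IgG. The TRIM21 line had 0.76, 0.1 and 0.858 after PBS, 0.953, 1.03 and 1.47 after BSA, and 0.783, 0.989 and 1.35 after IgG. The lines overlapped after BSA and IgG and not after PBS, where the value of 0.1 CPM in TRIM21 PBS 11 came from 2 counts. The line difference was -0.50 (SE 0.236, edgeR adjusted p = 0.233). IgG against PBS gave 0.79 (SE 0.443) in the TRIM21 line and -0.56 (SE 0.4) in the parental line. Without TRIM21 PBS 11 the former was 0.35. Irf9 had a line difference of -0.22 (SE 0.099, edgeR adjusted p = 0.204), lower in 8 of 9 pairs.

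Parp9 and Dtx3l, a divergent gene pair on chromosome 16 whose products form a ubiquitin ligase, did not pass the test, nor did the ADP-ribosyltransferase gene Parp14 close by. Parp9 and Dtx3l overlap in their exons on opposite strands, and the strand setting of the counting is not given in the sources used here. Their line differences were -0.13 (SE 0.106) and -0.04 (SE 0.091). Parp14 had -0.27 (SE 0.12, edgeR adjusted p = 0.198). For IgG against PBS in the TRIM21 line the values were 0.04, 0.34 and 0.41 for Parp9, Dtx3l and Parp14, and -0.17, 0.15 and 0.18 without TRIM21 PBS 11.

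Guanylate-binding proteins and the related IRG GTPases coat and break the vacuoles of pathogens, and they answer interferon gamma strongly. Gbp2 CPM in the TRIM21 line was 22.6, 8.5 and 24.9 after PBS, 21, 24.9 and 25.1 after BSA, and 23.3, 21.1 and 29.2 after IgG. In the parental line it was 22.2, 24.5 and 34.5 after PBS, 26.5, 18.5 and 27.5 after BSA, and 22.5, 29.7 and 26 after IgG. Apart from 8.5 in TRIM21 PBS 11 the TRIM21 values, 21 to 29.2, lay inside the parental range of 18.5 to 34.5. The line difference was -0.22 (SE 0.159, edgeR adjusted p = 0.455) and IgG against PBS in the TRIM21 line was 0.39 (SE 0.277), or 0.05 without that library.

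Igtp encodes an IRG protein of membranes, and its exons overlap those of Irgm2 on the same strand. Igtp CPM in the parental line was 1.2, 1.17 and 1.96 after PBS, 1.48, 0.875 and 1.62 after BSA, and 1.39, 1.57 and 2.42 after IgG. TRIM21 libraries had 0.808, 0.35 and 1.43 after PBS, 1.39, 1.21 and 1.73 after BSA, and 0.87, 0.643 and 1.75 after IgG. The library numbered 14 was highest in every group, and the lines overlapped in every treatment. The line difference was -0.42 (SE 0.235, edgeR adjusted p = 0.313). Irgm1 stood at 9.53 to 15.7 CPM in the TRIM21 line and 12.1 to 16.2 in the parental line, with a line difference of -0.13 (SE 0.096).

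Eif2ak2 shuts off translation when it binds double-stranded RNA, and Adar edits such RNA. Eif2ak2 CPM in the parental line was 45, 45.4 and 64.8 after PBS, 43.2, 41.6 and 46.3 after BSA, and 42.8, 46.7 and 49 after IgG. The TRIM21 line had 51, 36.3 and 45.4 after PBS, 40.7, 46 and 52.9 after BSA, and 44.6, 40.8 and 48.8 after IgG. Its lowest and highest libraries, TRIM21 PBS 11 and parental PBS 14, were both PBS libraries. The line difference was -0.06 (SE 0.084, edgeR adjusted p = 0.719). Adar kept to 51.4 to 65.5 CPM over all 18 libraries, with a line difference of 0.04 (SE 0.046).

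Ifi44 (chr3:151730922-151749960, minus strand, GRCm38) encodes a cytosolic interferon-induced protein and had the largest line difference of all tested members. Ifi44 CPM in the parental line was 1.91, 2.23 and 4.5 after PBS, 1.83, 2.26 and 3.65 after BSA, and 2.37, 2.94 and 3.4 after IgG. TRIM21 libraries had 0.856, 0.65 and 1.64 after PBS, 0.357, 2.24 and 2.16 after BSA, and 1.65, 1.34 and 2.24 after IgG. The TRIM21 value was lower in 9 of 9 pairs, and the lines did not overlap after PBS or after IgG. The log2 difference was -0.94 (SE 0.274, edgeR adjusted p = 0.0484), and it was -0.90, -0.72 and -0.79 within numbers 10, 11 and 14. Leaving out TRIM21 PBS 11 and parental PBS 14, the libraries at the extremes of many members, gave -0.71 (SE 0.267, edgeR adjusted p = 0.174, in a range over the alternatives from 0.00138 to 0.174). With single libraries left out the difference ran from -1.12 to -0.79, and the call was lost in 13 of 18 such fits. The call was kept in 5 of the 6 other alternatives that tested Ifi44. Ifi44 thus always kept its direction and did not always keep its call.

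Xaf1, an interferon-induced gene linked to cell death, was named for its fold change of IgG against PBS. Xaf1 CPM in the TRIM21 line was 5.42, 3.3 and 7.01 after PBS, 5.24, 6.89 and 8.76 after BSA, and 6.39, 6.68 and 8.12 after IgG. In the parental line it was 5.16, 7.13 and 11 after PBS, 6.89, 6.22 and 7.79 after BSA, and 6.74, 8.73 and 8.13 after IgG. In the parental line the PBS libraries spread most widely (SD 2.96, against 0.79 after BSA and 1.02 after IgG). In the TRIM21 line the SDs after PBS and BSA were close (1.86 and 1.76, against 0.925 after IgG), and the PBS value includes TRIM21 PBS 11. IgG against PBS in the TRIM21 line was 0.42 (SE 0.269, edgeR adjusted p = 0.724), and 0.18 without TRIM21 PBS 11.

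Lgals3bp, which binds galectins outside the cell, was abundant and steady. Lgals3bp CPM in the parental line was 20, 23 and 19.3 after PBS, 21.9, 20.4 and 24.5 after BSA, and 22.5, 21.7 and 23.7 after IgG. The TRIM21 line had 20.3, 22.2 and 25.6 after PBS, 18.8, 19 and 24.8 after BSA, and 25.7, 20.6 and 24.3 after IgG. Lines and treatments overlapped throughout, and the line difference was 0.03 (SE 0.076, edgeR adjusted p = 0.848). Of the other members, Bst2 (tetherin, which holds budding virions at the cell surface) had a line difference of -0.28 (SE 0.146), and Rtp4 -0.19 (SE 0.151). Samd9l, Ifi35 and Helz2 lay between -0.17 and 0, and Epsti1 at 0.17 (SE 0.276).

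**Figure D4:**
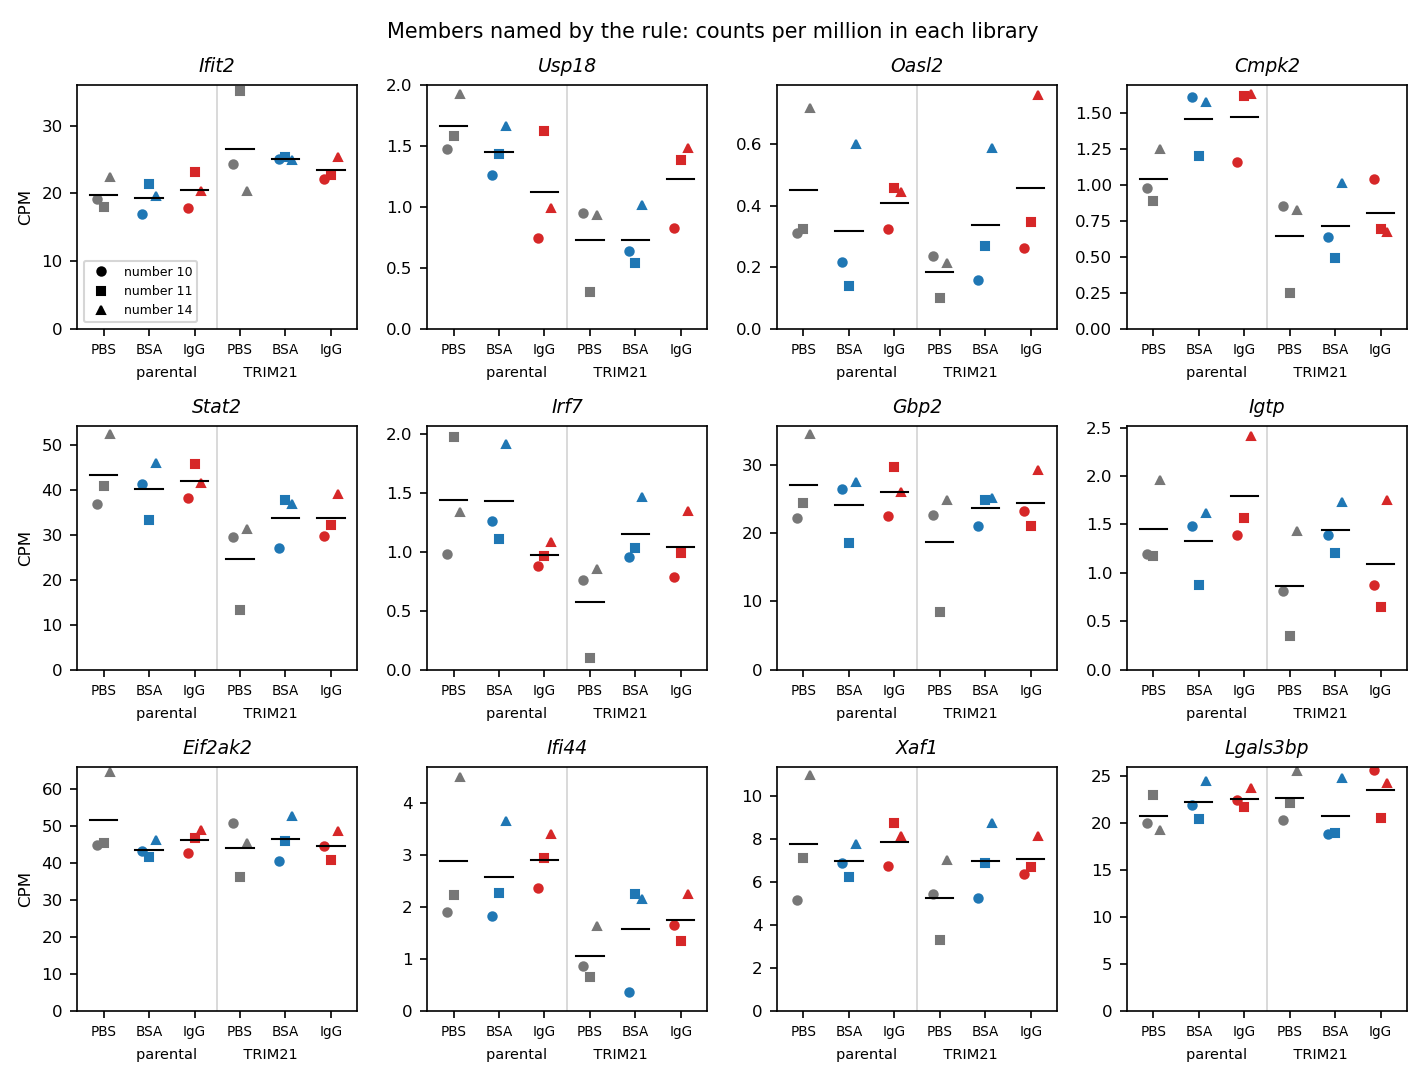
CPM (y axis, from 0) of the 12 members given with every value, in each of the 6 groups on the x axis; circles, squares and triangles are the libraries numbered 10, 11 and 14, and bars are group means. Cmpk2 and Ifi44 sit lower in the TRIM21 groups, Ifit2 sits higher, and the grey square of TRIM21 PBS 11 is the lowest point of most panels.

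The lines were also compared within each treatment, where no member passed the test in the main fit. After PBS, 1 member, Stat2, passed with DESeq2 and with no filter on low counts. Without TRIM21 PBS 14, 5 members and 1014 of 12140 genes passed after PBS. A block for the library number called 4 members and 847 genes there, and 8 and 1988 with a GC offset as well. In the main fit 1.71% of all genes were called after PBS, 0.848% after BSA and 0.774% after IgG. After PBS 26 of 30 members were below 0 with a median of -0.34, after BSA 19 with a median of -0.07, and after IgG 17 with a median of -0.04. Unadjusted p-values under 0.05 were held by 8, 3 and 1 members, against 19.8%, 10.3% and 7.79% of all genes. After PBS the lowest values were -1.39 for Ifi44 (SE 0.49, edgeR adjusted p = 0.156), -1.27 for Irf7 (SE 0.423, edgeR adjusted p = 0.137) and -1.22 for Oasl2. Without TRIM21 PBS 11 these were -1.15, -0.83 and -0.96, and the median after PBS was -0.13. Without parental PBS 14 as well, 16 members were above 0 and 14 below, and the median was 0.01. Many members were lowest in TRIM21 PBS 11 and highest in parental PBS 14, so leaving both out was bound to shrink the difference. After PBS all 3 TRIM21 libraries lay below all 3 parental ones for Usp18, Oasl2, Cmpk2, Stat2, Irf9, Irf7, Ifi44 and Helz2 (8 of 30 members), and no member showed the reverse, where 15.4% of all genes separated the lines in either direction. After BSA 4 members did (16.8% of genes): Usp18 and Cmpk2 were lower, Ifit2 and Samd9l higher. After IgG only Cmpk2, Ifi44 and Helz2 did, all lower (19.8% of genes). Whether the line difference itself varied with treatment was tested for IgG against PBS and for IgG against BSA, and no member passed.

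The median line difference of the tested members was -0.09 among libraries numbered 10, -0.31 among those numbered 11 and -0.10 among those numbered 14. For IgG minus PBS in the TRIM21 line the same medians were 0.01, 0.61 and 0.17. The value of number 11 is the pair that holds TRIM21 PBS 11. Against BSA, the protein control, IgG in the TRIM21 line gave medians of 0.09, -0.04 and 0.04, and the fitted median was 0.05 with 18 members above 0. BSA against PBS in the same line had a fitted median of 0.07, and 20 members were above 0. Without TRIM21 PBS 11 that median was -0.02, 14 members were above 0, and no member, Irf7 included, had an unadjusted p under 0.05. With all libraries, at an unadjusted p under 0.05 stood no member for IgG against BSA in this line (0.371% of genes), Irf7 alone for BSA against PBS (3.68%), and Usp18 alone for the difference between lines in IgG against BSA (3.97%). IgG against PBS and BSA against PBS share the PBS libraries.

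The parental line gave no member in any treatment comparison either. IgG against PBS had 12 members above 0 and a median of -0.06. BSA against PBS had 5 above 0 and a median of -0.12, and IgG against BSA had 18 above 0 and a median of 0.07. At an unadjusted p under 0.05 there was no member in these 3 comparisons, and there were 325, 302 and 713 genes (2.68%, 2.49% and 5.87%). Leaving out parental PBS 14 moved the median of IgG against PBS to 0.12, with 21 members above 0, and that of BSA against PBS to 0.03, with 17 above 0. Many members were highest in that library, so leaving it out was bound to raise their values.

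The library TRIM21 PBS 11 was the lowest of all 18 for 19 of the 30 tested members, where 23.8% of all genes had their lowest value in it. It was the highest of 18 for 2 members, against 24.7% of all genes. Within the TRIM21 line it lay below all 8 other libraries for 20 members (66.7%), against 30.1% of all genes, with a median log2 gap of -0.69 against -0.03. The gap was -1.44 for Gbp2, -1.43 for Gbp3 (3 counts), -1.33 for Irf7, and -1.28 for Gbp7 (2 counts) and for Stat2. It was near 0 for Irgm1, Lgals3bp and Ifit3, and above 0 for Ifit2 (0.56), Epsti1 (0.44) and Ifi35 (0.30). A constant was added to CPM before taking logs, which shrinks gaps at low CPM, so these values do not rank the members. Against the median of the other TRIM21 libraries, Irf7 stood at 0.1 CPM against 0.971 and Gbp7 at 0.1 against 0.935. Gbp3 stood at 0.15 against 1.23. The relative drop was smaller for Gbp2, at 8.5 against 24.1, and for Stat2, at 13.2 against 31.7.

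Other genes were also low in that library. The collagen gene Col3a1 stood at 1332 CPM against 3299 to 5466 in the other TRIM21 libraries, Pdgfra at 310 against 682 to 933, and the summed fibroblast markers at 19604 against up to 33406. Vim (6595 CPM) lay inside the range of the others. The part of these shifts in the members' values was not tested. Tested members with an ISRE-core match had a median gap of -0.84 (11 members, 8 of them lowest of 18), those without -0.66 (15 members, 8 lowest) and those with no window -0.70 (4 members, 3 lowest). Irgm1, with 2 matches, had a gap of -0.01.

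Parental PBS 14 lay at the other end: it was the highest of 18 for 15 of the 30 members, against 16.2% of all genes. Ifit1, Usp18, Stat2, Gbp2, Gbp3, Gbp7, Ifi44 and Xaf1 were among the 15, and 12 members had both their highest value there and their lowest in TRIM21 PBS 11. The summed CPM of the 42 members was 468 in parental PBS 14, 281 in TRIM21 PBS 11 and 348 to 415 in the other 16 libraries. Ifit1, Gbp3 and Igtp were highest in the library numbered 14 in all 6 groups (3 of 30 members, against 2.03% of genes), and 10 members were so in at least 5 groups (against 7.43% of genes).

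**Figure D5:**
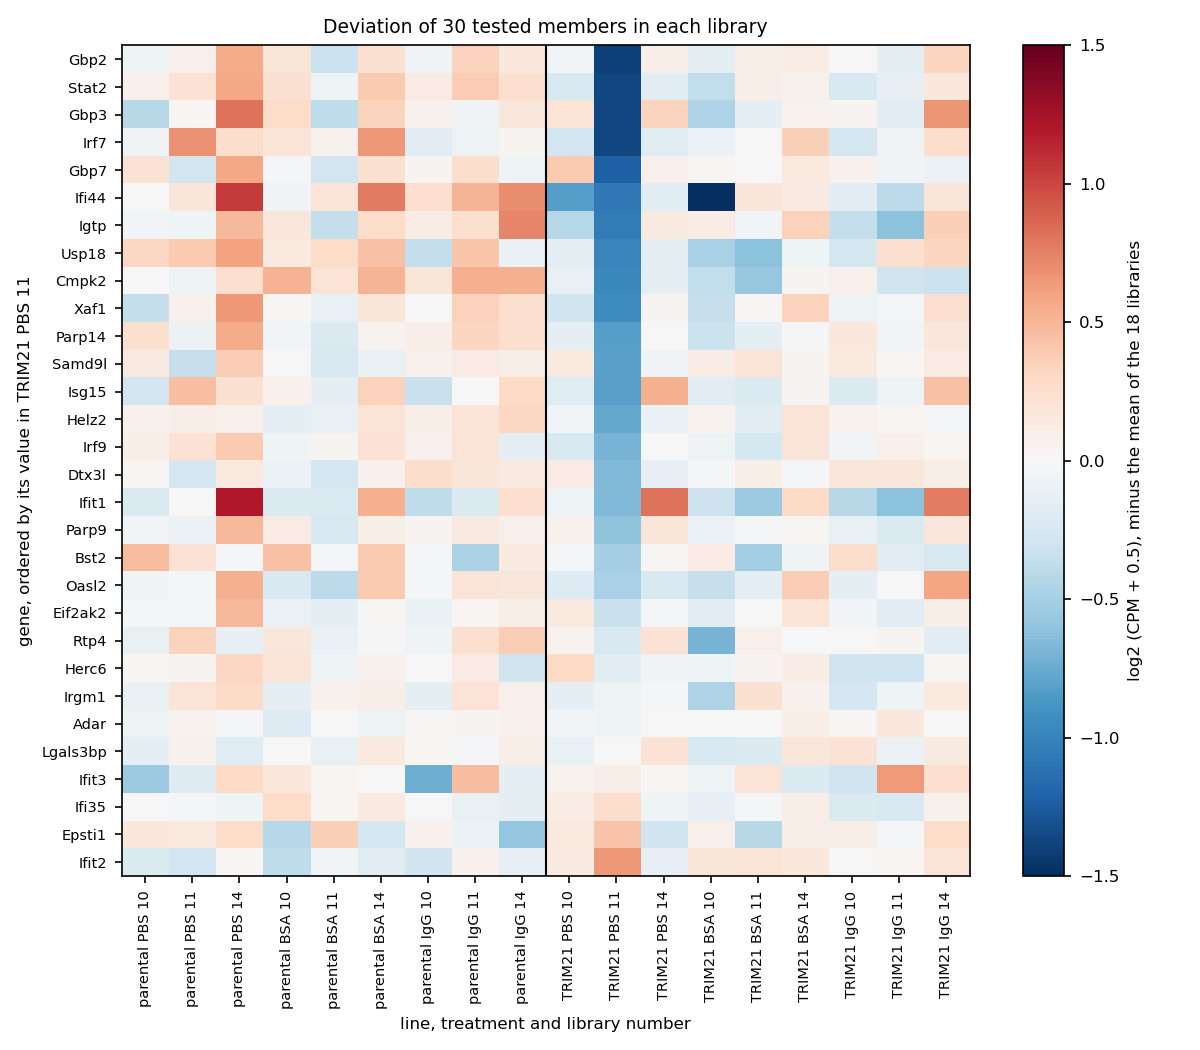
Colour map of log2 (CPM + 0.5) minus the gene's mean over 18 libraries, for the 30 tested members (rows, ordered by their value in TRIM21 PBS 11) in each library (columns); red is above and blue below the mean. A blue column marks TRIM21 PBS 11, where 19 members are lowest of 18, and parental PBS 14 is mostly red.

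The pathway upstream of the members was read from a list of 30 genes: 10 ligands, 6 receptor chains, 3 kinases, 6 transcription factors and 5 negative regulators. Of the ligands, Ifnb1, Ifna1, Ifna4, Ifna5, Ifnk, Ifng and Ifnl2 had 0 counts everywhere, Ifna2 and Ifnl3 had 1 count in 1 library, and only Ifne had more, with 1 to 9. Of the receptor chains, Ifnlr1 had 0 counts everywhere and the others had enough reads to be tested. Ifnar1 stood at 57.8 ± 4.43 CPM in the TRIM21 line and 60.6 ± 5.56 in the parental line (SD, n = 9 each). Ifnar2 stood at 30.8 ± 1.87 and 33.1 ± 2.79 CPM. Irf1, the immediate target of interferon gamma, stood at 43.8 ± 4.24 and 42.4 ± 3.59 CPM.

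Of the 18 pathway genes that could be tested, 1 was called between the lines (against 6.18% of all genes) and none in any treatment comparison. That gene was Irf5, a transcription factor of the interferon response, at 1.97 ± 0.202 CPM in the TRIM21 line and 2.93 ± 0.522 in the parental line (SD, n = 9 each; log2 difference -0.56, SE 0.117, edgeR adjusted p = 0.0056). A further list of 35 interferon-stimulated genes outside the 42 had 33 in the tables and 24 tested, of which 2 were called between the lines (6.18% of all genes) and 0 in the treatment comparisons. Ifitm1, a membrane protein that blocks viral entry, was lower in the TRIM21 line, at 0.223 ± 0.105 CPM against 0.752 ± 0.177 (log2 difference -1.79, SE 0.254, edgeR adjusted p = 0.000158). It had only 0 to 29 counts a library and lay near the limit of detection in the TRIM21 line. It may have passed the filter through the parental libraries alone, so the size of its difference is uncertain. Nlrc5, the activator of MHC class I genes, was higher in the TRIM21 line, at 2.2 ± 0.497 against 1.5 ± 0.397 CPM (log2 difference 0.56, SE 0.161, edgeR adjusted p = 0.0463). The median of this list for IgG against PBS in the TRIM21 line was 0.14, with 22 of 24 above 0, where 51.7% of all genes were above 0. BSA against PBS in the same line gave 0.092, with 21 above 0, and shares the PBS libraries. IgG against BSA there gave 0.0251, with 17 above 0. In the parental line IgG against PBS gave -0.00396, with 12 above 0. Whether the shift of this list rests on a single PBS library was not tested.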

How the data were processed

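RNA of 18 libraries was analysed from raw counts of reads per gene symbol that the authors deposited, 1 table per library. Per the submitters' processing notes the tools were STAR 2.5.1b, HTSeq 0.6.0 and DESeq2 1.6.3 with build mm10; their settings, including strand, are not given in the sources used here. The lines for reads given to no gene (13.1% to 18.8% of uniquely aligned reads fell outside genes) were left out. Genes were kept by filterByExpr (minimum count 10, minimum total 15), and 1 quasi-likelihood model with a mean per group was fitted to all libraries (edgeR 4.0.16, R 4.3.3, TMM factors from 0.9774 to 1.034). P-values were adjusted by Benjamini-Hochberg over 12140 genes in each comparison, with a threshold of 0.05. CPM used the TMM factors; within-number differences and deviations used log2 (CPM + 0.5). RPKM divided by the summed exon length of GENCODE M21 genes. The edgeR fit was first tested on simulated counts, for IgG against PBS in the TRIM21 line only. Two-sided tests were used throughout.

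Every value was given for members called in any comparison, the 6 with the largest change between lines, the 6 with the largest change for IgG against PBS in the TRIM21 line, and the 3 highest per length. The members and lists were chosen with earlier results of these data known. Alternatives were DESeq2 size factors, no filter, at least 10 counts in every sample, a block for the library number (also with a GC offset), DESeq2 1.42.0, only the groups compared, each library left out, and, chosen after seeing the data, both outlying PBS libraries left out.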

Additional observations from a re-analysis of the deposited data

How the results depend on the processing

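The number of members called between the lines, 3 of 30, was 0 with at least 10 counts in every sample (a filter that removed Cmpk2 and Ifi44), 5 with the DESeq2 Wald test, and 1 to 5 with single libraries left out. It was 1, with Cmpk2 alone, without any of TRIM21 IgG 10, TRIM21 IgG 11, parental PBS 11, parental BSA 10, parental BSA 14, parental IgG 10 or parental IgG 14, and 5 without TRIM21 PBS 14. Among fits that left out a single library, Ifit2 kept its call only without TRIM21 PBS 10, TRIM21 PBS 14, parental PBS 14, parental BSA 11 or parental IgG 11. Ifi44 kept its call there only without TRIM21 PBS 14, TRIM21 BSA 10, TRIM21 BSA 11, TRIM21 BSA 14 or parental PBS 10. In the other alternatives Ifit2 kept its call in 6 of 7 and Ifi44 in 5 of the 6 that tested it. The count after PBS, 0, was 1 with no filter and 1 with DESeq2 (Stat2 in both), and 0 to 5 over the libraries left out, with 5 without TRIM21 PBS 14. The median of IgG against PBS in the TRIM21 line, 0.29, ran from 0.049 without TRIM21 PBS 11 to 0.38 without TRIM21 PBS 14, and was 0.0491 with both outlying PBS libraries left out. The median line difference ran from -0.26 to -0.09 over single libraries left out, and was -0.04 with both outlying PBS libraries out. That pair was chosen after seeing the data, at opposite extremes of many members, so its omission is no independent check. The cause of these changes was not tested except for the filter. The other 10 counts of members called stayed at 0 in every alternative. Cmpk2, Ifi44 and Ifit2 kept the direction of their line difference in every alternative that tested them, and members near 0, such as Eif2ak2 and Dtx3l, did not. For IgG against PBS in the TRIM21 line, members that turned included Cmpk2 (-0.05), Igtp (-0.06), Eif2ak2 (-0.11), Parp9 (-0.17) and Ifit2 (0.07) without TRIM21 PBS 11, and Lgals3bp (-0.02) without TRIM21 PBS 10.

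With the library number as a replicate block, 5 members were called between the lines and 4 after PBS (1462 and 847 of 12140 genes, against 750 and 208 without it). With the block and a GC offset, 8 and 8 were called (2365 and 1988 genes). Deviations of same-numbered libraries correlated at 0.218 on average, from -0.323 upward, and 32 of 45 pairs exceeded 0.1. Differently numbered ones correlated at -0.109. Same-numbered libraries were thus more alike on average, though not in every pair, and what they share was not tested. The labels do not say what the number stands for, so the main fit did not use the pairing and the block is given only as an alternative. Members with under about 10 counts, such as Oasl2, are limited by depth.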
